A study of Mus musculus with 6 samples.

Results

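The genes described here are those of class I antigen presentation, the route by which a cell displays fragments of its own proteins to cytotoxic T cells. They are the light chain B2m, the heavy chains H2-K1, H2-D1 and H2-T23, the peptide transporter genes Tap1 and Tap2, the loading factors Tapbp and Tapbpl, the trimming enzyme Erap1 and the transactivator Nlrc5. These 10 genes were listed by function, with earlier results of these data known. They were found by symbol in a table of read counts for 21033 gene symbols. All 10 had reads, and 9 passed the filter on low counts and were tested among 10124 genes, with Nlrc5 below the filter.

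The cells were primary synovial fibroblasts of the ankle, taken from arthritic hTNFtg mice, so that both groups carried the human TNF transgene. After 3 passages in culture, one group received 10 µM compound 33 for 48 h and the other its vehicle DMSO, and each group has 3 libraries. Strain, sex, age and the number of mice are not given in the labels, nor whether replicates are separate cultures. The p-values here thus reflect the spread among libraries alone, and how much of that spread is technical was not tested. A few genes, given at the end, were absent from same-numbered libraries of both groups. Only RNA was measured, as 3′ tags that need no correction for gene length, and levels are counts per 1e+06 scaled reads (CPM), with means ± SD over 3 libraries.

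In the class I pathway, proteasomes cut cytosolic proteins into peptides, and the TAP transporter, a pair of TAP1 and TAP2, moves them into the endoplasmic reticulum. There tapasin, the product of Tapbp, bridges TAP to empty heavy chains and helps them bind peptides of high affinity, while ERAP1 trims peptides to length. A heavy chain reaches the cell surface only with β2-microglobulin and a peptide. NLRC5 raises transcription of many of these genes from an enhancer module in their promoters, and interferons and TNF act on the same promoters through ISRE and κB elements.

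Letter matches to κB, X2 and ISRE cores were looked for in the promoters, and the stretches are shown to let the members that hold one be compared base by base. Promoter windows of 300 bases, from 250 before to 50 after the gene start, were taken from RefSeq on GRCm38.p6, the assembly that mm10 denotes, and 7 of the 10 members had one (B2m, H2-K1, H2-D1, H2-T23, Tap1, Tapbp and Erap1). RefSeq's start can differ from the end of the GENCODE gene span given further on. For H2-D1, H2-T23, Tapbp and Erap1 it lies well inside that span, and for B2m and Tap1 by a few bases. Each stretch below has 30 bases, is read 5′ to 3′ on the strand of its gene and shows the matched motif in capitals. The κB core GGGATTCCC lies in H2-K1 (chromosome 17, 34000439 to 34000468, minus strand) and H2-D1 (chromosome 17, 35262913 to 35262942, plus strand).
H2-K1 κB: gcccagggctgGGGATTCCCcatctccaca
H2-D1 κB: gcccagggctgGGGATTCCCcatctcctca

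The core of the X2 box, TGACG, lies in B2m (chromosome 2, 122147596 to 122147625, plus), H2-K1 (chromosome 17, 34000372 to 34000401, minus), H2-D1 (chromosome 17, 35262980 to 35263009, plus) and Tap1 (chromosome 17, 34187457 to 34187486, plus). The ISRE core GAAANNGAAA, or its reverse complement, lies in B2m (chromosome 2, 122147538 to 122147567, plus), Erap1 (chromosome 13, 74639839 to 74639868, plus) and H2-T23 (chromosome 17, 36032806 to 36032835, minus).
B2m X2: gctaggagactggTGACGacctccggatct
H2-K1 X2: gtccggacactgtTGACGcgcagtcagctc
H2-D1 X2: gccgggacactgaTGACGcgctggcaggtc
Tap1 X2: gcccagagacaggTGACGacagagggtcct
B2m ISRE: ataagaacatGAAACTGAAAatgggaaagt
Erap1 ISRE: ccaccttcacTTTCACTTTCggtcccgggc
H2-T23 ISRE: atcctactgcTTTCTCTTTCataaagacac

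Both strands were searched, and B2m held another TGACG match, in reverse complement, from 44 to 48 bases after the gene start, not shown above. Of 32851 windows in the table, 0.353% hold GGGATTCCC, 20.8% hold TGACG, 3.44% hold GAAANNGAAA, 37.4% hold CCAAT and 8.3% hold the GAS pattern TTCNNNGAA. Among the 7 members with a window, 2 hold the first, 4 the second and 3 the third, 6 hold CCAAT (all but Erap1) and 0 hold TTCNNNGAA. A match is a stretch of letters in this window and not a site shown to be bound.

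The libraries held 1594052 to 2897207 reads. The fibroblast markers were all present, with Col1a1 at 2411 to 3451 CPM and Vim at 2055 to 2839.8 CPM over the 6 libraries. Of the 9 fibroblast markers none passed the edgeR test, but the groups did not overlap for Thy1, at 765 ± 166 CPM with DMSO and 486 ± 52.0 with compound 33, and Pdgfrb, at 178 ± 47.7 and 274 ± 26.3 CPM. Lymphocyte markers had no read in any library (8 of 8 genes at 0), and the summed level of the 10 myeloid markers was 46.5 to 139.6 CPM with DMSO and 45.2 to 108 CPM with compound 33, mostly from Lyz2, while Ptprc reached at most 1.39 CPM and Adgre1 at most 0.696 CPM. One gene of the same chromosome region did not follow the groups. H2-DMb2, a class II accessory gene that lies between H2-K1 and Tap1 (chromosome 17, 34143307 to 34151555), had 0 reads in replicate 1 of both groups and 44, 74, 51 and 97 reads in the other 4 libraries. A count of 0 allows up to 1.59 CPM in DMSO replicate 1 and 1.83 CPM in compound 33 replicate 1, for counting error only.

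Compound 33 was compared with DMSO to ask which transcripts of activated fibroblasts it changes. The log2 fold change was positive for each of the 9 tested members, although B2m and H2-T23 turned negative when single libraries were left out, and none of the 9 passed the test. The transporter and loading genes Tap1, Tap2, Tapbp and Tapbpl had levels 1.53 to 1.73 times higher with compound 33, whereas B2m and H2-T23 stood at 1.02 and 1.06 times the DMSO mean. The classical heavy chains H2-K1 and H2-D1 stood at 1.56 and 1.23 times, the former through 1 library, and Erap1 at 1.20 times. The median log2 fold change was 0.61 over the 9 members and -0.01 over all genes tested, of which 48.9% were positive. The members' median was 0.26 without compound 33 replicate 3 and 0.35 without DMSO replicate 1.

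By edgeR's quasi-likelihood test with Benjamini-Hochberg adjustment over all genes, 0 of 9 members passed an adjusted p of 0.05, where 0.0296% of the tested genes did. Before adjustment 4 members, H2-K1, Tap1, Tap2 and Tapbpl, lay under 0.05 and higher with compound 33 and 0 lower, beside 3.64% of all genes higher. Groups did not overlap for 2 members, Tap1 and Tapbpl, both higher with compound 33, beside 6.64% of all genes. Among all genes tested, 672 were higher without overlap and 681 were lower without overlap. In DESeq2 0 members passed and 5 were higher under an unadjusted 0.05, beside 2.24% of the 14851 genes with reads that it tested. In limma-voom 0 passed and 3 were higher under 0.05, beside 3.65% of genes. By the authors' deposited table, of the 9 members with an adjusted p none passed (0 of 9, beside 0.179% of its genes), and 5 were higher under an unadjusted 0.05, beside 2.24% of its genes. That table is also from DESeq2 on these counts. It gave these 9 members the same rounded fold changes and adjusted p as the DESeq2 fit here, so it is not a separate result. The authors' deposited table gives its smallest member p to Tapbpl, at 0.68 on the log2 scale with an SE of 0.27 and an adjusted p of 0.639. The edgeR count of 4 was 2 without DMSO replicate 1 or DMSO replicate 2 and 1, Tapbpl, without compound 33 replicate 3. For these leave-out fits the share of all genes was not computed. Every member's fold change was relative to a scaling in which the median gene stayed within 0.02 of 0 on the log2 scale in each setting tried.

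B2m, which encodes the light chain, was the most abundant member. It stood at 1395, 947 and 1041 CPM with DMSO and at 1278, 988 and 1169 CPM with compound 33, on mean 1127 ± 236 and 1145 ± 146 CPM (SD, n = 3). The highest and the lowest library were both DMSO libraries, so the groups overlapped throughout. Its log2 fold change was 0.02 (SE 0.23, 95% interval -0.47 to 0.51, edgeR adjusted p = 0.989), an interval that leaves room for moderate differences in either direction. B2m lies on chromosome 2 of mm10 (122147686 to 122153083, plus strand), away from the other chains.

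H2-K1, the classical heavy chain of the K locus (chromosome 17, 33996017 to 34000347, minus strand), stood at 344, 322 and 375 CPM with DMSO and at 394, 375 and 852 CPM with compound 33. Compound 33 replicate 3 was high, and the other compound 33 libraries lay near the top of the DMSO range. The log2 fold change was 0.64 (SE 0.29, 95% interval 0.00 to 1.27, edgeR adjusted p = 0.72). Without compound 33 replicate 3 it was 0.15 (adjusted p = 0.959), so most of the difference rested on that library.

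H2-D1, the classical heavy chain of the D locus (chromosome 17, 35262730 to 35267499, plus strand), stood at 169.7, 248 and 287 CPM with DMSO and at 274, 287 and 307 CPM with compound 33. DMSO replicate 1 was the lowest library and compound 33 replicate 3 the highest, and the groups overlapped because DMSO replicate 3 exceeded compound 33 replicate 1. The fitted log2 fold change was 0.30 (SE 0.22, edgeR adjusted p = 0.877), and it was 0.12 without DMSO replicate 1. H2-T23, which encodes the nonclassical chain Qa-1 that natural killer cells read through NKG2A (chromosome 17, 36029773 to 36032855, minus strand), was scarce. It had 21, 33 and 38 reads with DMSO and 37, 11 and 28 with compound 33, or 13.1 ± 1.88 and 13.9 ± 9.04 CPM. Its highest and its lowest library both received compound 33, and the sign of its fold change (0.04, SE 0.46, edgeR adjusted p = 0.992) was negative in limma-voom, with the replicate number as a block and in 3 of the 6 fits that left out a library.

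**Figure D1:**
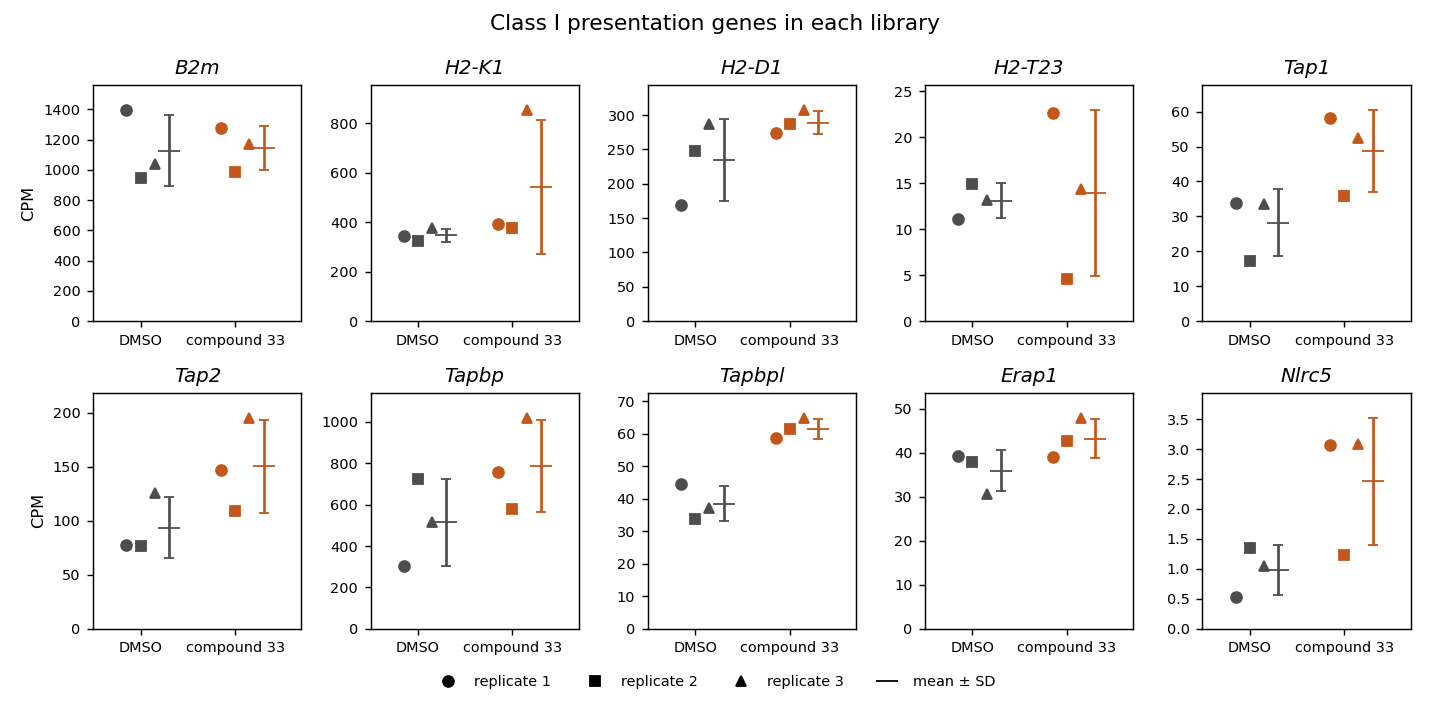
Level of each class I presentation gene, in CPM on a linear axis from 0, in the 3 DMSO libraries (grey) and the 3 compound 33 libraries (orange), with symbols for the replicate number and bars for the mean ± SD. Tap1 and Tapbpl show groups that do not overlap, and H2-K1 shows a single high library at 852 CPM.

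The heavy chain genes are close relatives whose reads the counting could split or drop, so their 3′ ends were compared in the GENCODE M21 transcripts. Of the windows of 50 bases in the last 300 bases, 0.8% were shared with another gene's transcript for H2-K1 (with H2-D1). The share was 17.1% for H2-D1, with 80 partner genes, and 50.6% for H2-T23, with 75 partner genes. It was 0% for B2m, Tap1, Tap2, Tapbp, Tapbpl, Erap1 and Nlrc5. With windows of 100 bases the share was 0% for H2-K1 and H2-D1 and 19.4% for H2-T23, so the H2-T23 count is the least certain. The partners of H2-T23 at 100 bases were Hook2 and Rab33b, which are not heavy chains and lie outside the heavy chain sum below. H2-T22, a nonclassical heavy chain outside the listed members, shared 49.4% of its windows of 50 bases with H2-T10.

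Added over all 24 heavy chain genes in the table, of which 14 had reads, heavy chains stood at 767, 717 and 805 CPM with DMSO and at 859, 809 and 1322 CPM with compound 33. The lowest compound 33 library lay just above the highest DMSO library, and only compound 33 replicate 3 stood well apart. Fitted as a single row, the sum had a log2 fold change of 0.38 (SE 0.23, 95% interval -0.12 to 0.89, edgeR adjusted p = 0.818), and 0.14 without compound 33 replicate 3.

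The split of these reads by gene set compound 33 replicate 3 and DMSO replicate 1 apart from the other libraries. H2-K1 took 64.5% of heavy chain reads in compound 33 replicate 3 (95% Wilson interval 62.6 to 66.3) and 44.8% to 46.6% in the other 5. H2-D1 took 23.2% in compound 33 replicate 3 (21.6 to 24.9) and 22.1% in DMSO replicate 1 (20.1 to 24.3), against 32.0% to 35.6% elsewhere. In DMSO replicate 1 the balance was made up by H2-T22, at 27.7% (25.5 to 30.1) against 8.92% to 15.2% elsewhere. These intervals cover counting error only.

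The ratio of H2-K1 to H2-D1 reads was 2.03, 1.30 and 1.31 with DMSO and 1.44, 1.31 and 2.78 with compound 33. It differed on the log2 scale by 0.20 between the group means, less than the SD of either group (0.37 and 0.59, exact permutation test, two-sided, p = 0.6). B2m reads per heavy chain read were 1.82, 1.32 and 1.29 with DMSO and 1.49, 1.22 and 0.885 with compound 33. The difference was -0.32 on the log2 scale (exact permutation test, two-sided, p = 0.4, adjusted p = 0.6 over 3 ratios), in a design of 3 against 3 that cannot go below 0.1. It was -0.11 without compound 33 replicate 3, -0.16 without DMSO replicate 1 and -0.49 without compound 33 replicate 1. The third ratio, of B2m to H2-K1, H2-D1 and H2-T23 alone, differed by -0.43 (exact permutation test, two-sided, p = 0.4).

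**Figure D2:**
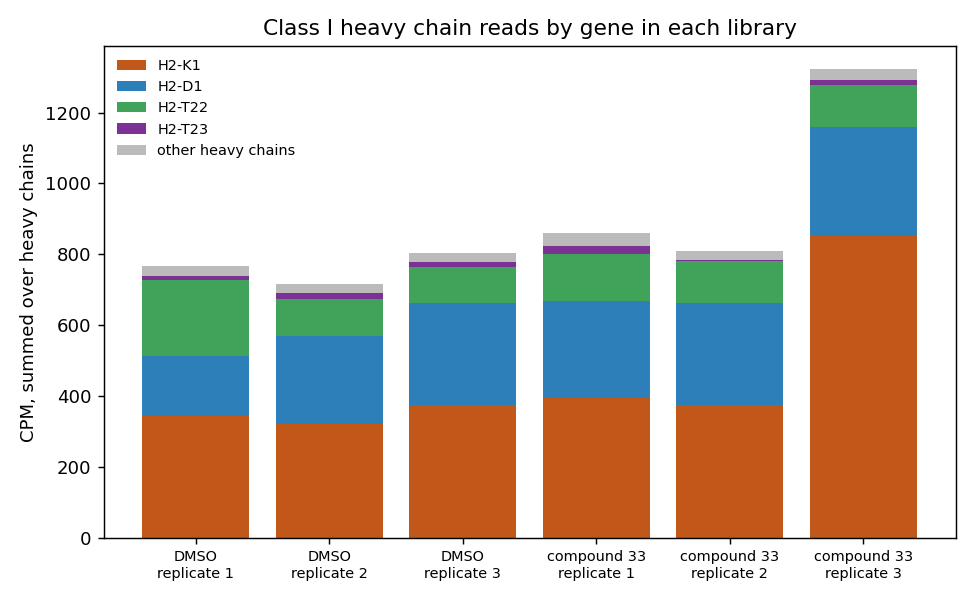
Summed level of class I heavy chain genes in each library, in CPM, stacked by gene, for 3 DMSO and 3 compound 33 libraries. The other 5 libraries total 717 to 859 CPM, and compound 33 replicate 3 reaches 1322 CPM with 64.5% from H2-K1.

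Tap1, a subunit of the peptide transporter (chromosome 17, 34187553 to 34197225, plus strand), stood at 33.9, 17.1 and 33.4 CPM with DMSO and at 58.1, 35.7 and 52.5 CPM with compound 33. All compound 33 libraries lay above all DMSO libraries, although compound 33 replicate 2 did so by little. For Tap1 the log2 fold change was 0.78 (SE 0.30, 95% interval 0.14 to 1.43, edgeR adjusted p = 0.674). Without DMSO replicate 2, the lowest library, it was 0.53.

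Tap2, the partner subunit (chromosome 17, 34203527 to 34216321, plus strand), stood at 77.4, 76.7 and 126 CPM with DMSO and at 147, 109 and 195 CPM with compound 33. Its DMSO replicate 3 lay above compound 33 replicate 2, so the groups overlapped. For Tap2 the log2 fold change was 0.68 (SE 0.27, 95% interval 0.10 to 1.26, edgeR adjusted p = 0.687). It was 0.46 without compound 33 replicate 3 and 0.96 without DMSO replicate 3, the highest library of each group. Tap2 counts were higher than Tap1 counts in each of the 6 libraries.

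Tapbp, which encodes tapasin (chromosome 17, 33915899 to 33929292, plus strand), was the most abundant of the transporter and loading genes among the members. It stood at 304, 724 and 515 CPM with DMSO and at 759, 579.6 and 1019 CPM with compound 33, and the groups overlapped because DMSO replicate 2 exceeded compound 33 replicate 2. The log2 fold change was 0.61 (SE 0.31, 95% interval -0.05 to 1.27, edgeR adjusted p = 0.745). Leaving out DMSO replicate 1 gave 0.35, and leaving out DMSO replicate 2 gave 0.95. Exons of Tapbp overlap those of Zbtb22 on the same strand, outside the last 1000 bases of the gene.

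Tapbpl encodes TAPBPR, a tapasin relative that edits the peptides of class I molecules outside the loading complex (chromosome 6, 125223933 to 125231860, minus strand). It stood at 44.5, 33.8 and 37.3 CPM with DMSO and at 58.7, 61.4 and 64.9 CPM with compound 33. The groups did not overlap, and the libraries of each group lay close together. Its log2 fold change was 0.68 (SE 0.22, 95% interval 0.20 to 1.16, edgeR adjusted p = 0.563). Tapbpl had the smallest unadjusted edgeR p of the members (0.00866). Its estimate stayed between 0.60 and 0.79 with each library left out in turn, the narrowest such range among the transporter and loading genes. Outside these genes, Erap1 had a narrower range, from 0.17 to 0.34.

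Erap1, the aminopeptidase that trims peptides in the endoplasmic reticulum (chromosome 13, 74639568 to 74693201, plus strand), stood at 39.2, 37.9 and 30.6 CPM with DMSO and at 39.1, 42.7 and 47.9 CPM with compound 33. DMSO replicate 1 lay just above compound 33 replicate 1, so the groups overlapped. For Erap1 the log2 fold change was 0.27 (SE 0.23, 95% interval -0.22 to 0.77, edgeR adjusted p = 0.892). Exons of Cast on the opposite strand overlap the last 1000 bases of Erap1, and without a stated strand setting the reads of Erap1 and Cast cannot be told apart there. Exons on the opposite strand also overlap Tap1, Tap2, Tapbp and Nlrc5, but not their last 1000 bases, where 3′ tags fall.

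Nlrc5, the transactivator of class I genes (chromosome 8, 94434356 to 94527272, plus strand), had 1, 3 and 3 reads with DMSO and 5, 3 and 6 reads with compound 33. Its sums of 7 and 14 reads give a ratio of 2.33 per scaled read with an exact interval of 0.88 to 6.82, for counting error only. At this depth a difference was not detectable. The authors' deposited table gives it a log2 fold change of 1.30 (SE 1.09) and no adjusted p. Without the low-count filter edgeR gave a log2 fold change of 1.22 (adjusted p = 0.869).

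In the DMSO libraries the order of mean levels was B2m, Tapbp, H2-K1, H2-D1, Tap2, Tapbpl, Erap1, Tap1, H2-T23 and Nlrc5, from 1127 to 0.976 CPM. Tapbp and H2-K1 overlapped in range, as did Tapbpl with Erap1 and Erap1 with Tap1, while every other neighbouring pair was separate. Averaged over the 9 tested members, log2 CPM was 6.71, 6.72 and 6.88 with DMSO and 7.28, 6.85 and 7.46 with compound 33. Compound 33 replicate 2 lay inside the DMSO range on this scale, and compound 33 replicate 3 was the highest. With each gene standardised first, the means were -0.49, -0.62 and -0.35 with DMSO and 0.57, -0.15 and 1.04 with compound 33, and replicate 2 then lay above all DMSO libraries.

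Members followed the standardised mean to different degrees. The Pearson r of a gene's log2 CPM with the mean of the standardised members, over 6 libraries and given as a description, was 0.92 for Tap2, 0.86 for H2-K1, 0.83 for Tap1 and 0.80 for Tapbpl. It was 0.32 for B2m and 0.33 for H2-T23, although each gene is part of that mean. Outside the pathway lists, the 5 genes with a mean of at least 20 CPM most like the members' mean were Rab35 (r = 0.993), Tlr3 (0.990), Ntmt1 (0.977), Sumf1 (0.975) and Cyp26b1 (0.974), of 6614 candidates. The mean they were picked to follow was itself higher with compound 33, so a higher level in these genes follows from the choice. Rab35 had a log2 fold change of 0.22 (edgeR adjusted p = 0.893). Tlr3, a receptor for double-stranded RNA, stood at 40.3, 39.7 and 40.0 CPM with DMSO and at 66.6, 45.6 and 87.5 CPM with compound 33 (log2 fold change 0.73, edgeR adjusted p = 0.628).

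Of the members, 6 lie within 2.12 megabases of chromosome 17, the major histocompatibility complex of the mouse, and 4 lie elsewhere. Tapbpl on chromosome 6 had the same log2 fold change as Tap2 inside the complex (0.68), whereas H2-T23, also inside it, had 0.04. Tap1 and Psmb9 lie head to head with 5′ ends that overlap by 212 bases. Psmb9, an immunoproteasome subunit, stood at 5.83, 9.47 and 3.83 CPM with DMSO and at 19.0, 20.3 and 18.5 CPM with compound 33, groups that did not overlap (log2 fold change 1.61, SE 0.37, edgeR adjusted p = 0.305).

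The other steps of the pathway were read from lists by function, also chosen with earlier results of these data known. None of their genes passed the edgeR test. In the immunoproteasome and its PA28 activator, 4 of 6 tested genes were positive with a median log2 fold change of 0.56, and 3 lay under an unadjusted 0.05, all higher: Psmb8, Psmb9 and Psmb10. Psmb8, the subunit next to Tap1, stood at 32.1 ± 2.95 and 59.9 ± 10.7 CPM (log2 fold change 0.90, edgeR adjusted p = 0.401), and Psmb10 at 85.4 ± 27.1 and 147 ± 52.8 CPM (0.78, adjusted p = 0.649). The PA28 genes Psme1 and Psme2 had log2 fold changes of 0.34 and -0.47, and Psme2 had a single high DMSO library at 288 CPM against 65.8 to 114 CPM in the others. Among the chaperones that fold and edit class I molecules, 5 of 6 were positive with a median of 0.29. Calreticulin (Calr, 0.17) and the thiol oxidoreductase ERp57 (Pdia3, 0.41), both subunits of the loading complex, had intervals that include 0, and Uggt1, the glucosyltransferase that returns poorly loaded class I molecules for another round, had 0.65 (SE 0.25, edgeR adjusted p = 0.674) with groups that did not overlap. Cytosolic and other peptidases had a median of 0.13, with 5 of 7 positive and 0 under an unadjusted 0.05.

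Other class I heavy chains and class I-like molecules had estimates of both signs. Of 8 tested, 3 were positive and 5 negative, with a median of -0.06 and 0 under an unadjusted 0.05. H2-T22 stood at 213, 106 and 103 CPM with DMSO and at 130, 118 and 118 CPM with compound 33, so a single DMSO library was high, and exons of an antisense gene overlap its last 1000 bases. Hfe, the class I-like regulator of iron uptake, stood at 7.40 ± 0.94 and 12.1 ± 2.44 CPM with groups that did not overlap (log2 fold change 0.70, edgeR adjusted p = 0.749). H2-Q7 had 4, 0 and 3 reads with DMSO and 14, 5 and 6 with compound 33, too few to be tested.

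**Figure D3:**
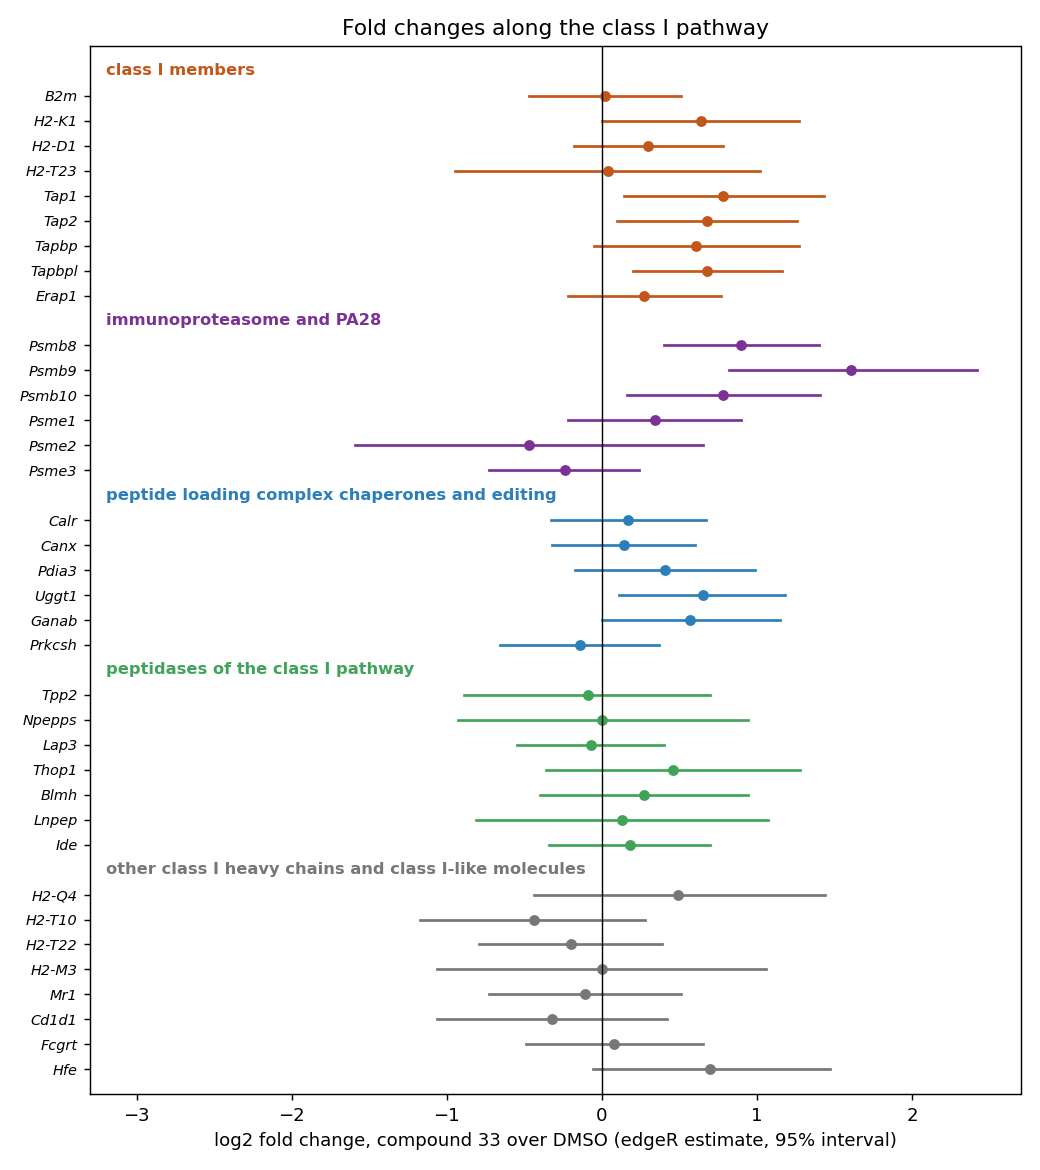
Log2 fold change of compound 33 over DMSO for the tested genes of the class I pathway, as points with 95% intervals from the edgeR fit (3 libraries per group), coloured by list. Intervals of Tap1, Tap2, Tapbpl, Psmb8, Psmb9, Psmb10 and Uggt1 lie above 0 before any adjustment for the 10124 genes tested, those of H2-K1 and Ganab reach down to 0, and those of B2m and the 8 other heavy chain and class I-like genes straddle it.

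Among the transcription factors that act on class I promoters, 9 of 16 tested were positive, with a median of 0.20. Under an unadjusted 0.05 in edgeR lay 3 of the 16, all higher, beside 3.64% of all genes tested. These were Irf7 (1.45, SE 0.39, edgeR adjusted p = 0.401), Stat2 (0.88, SE 0.32) and Irf1 (0.65, SE 0.24). Irf1 stood at 155, 208 and 172 CPM with DMSO and at 306, 336 and 198 CPM with compound 33, so the groups overlapped. The RFX and NF-Y subunits that bind the X and Y boxes had log2 fold changes from -0.33 (Nfyb) to 0.74 (Rfxank). Interferon genes in the table, Ifnb1, Ifng, Ifna2 and Ifnl2, had 0 reads in every library. Of the 4 interferon receptor genes, Ifngr1, a chain of the receptor for interferon γ, stood at 74.1 ± 14.0 and 116 ± 6.40 CPM with groups that did not overlap (log2 fold change 0.64, edgeR adjusted p = 0.586).

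Class II genes were unevenly present, with H2-DMb1 at 42.2 to 88.5 CPM but Cd74 at no more than 1.54 CPM and H2-Aa without reads in all libraries. Of 12 genes 4 were tested, 3 of them positive with 0 under an unadjusted 0.05. The negative gene was H2-DMa (log2 fold change -0.64, SE 0.44, edgeR adjusted p = 0.85). Its groups did not overlap, as every library given the compound lay below every vehicle library. The summed myeloid markers overlapped between the groups, but DMSO replicate 3 and compound 33 replicate 3 held the most of them, at 139.6 and 108 CPM, against 45.2 to 69.1 CPM in the other libraries. DMSO replicate 1, at 55.7 CPM of these markers, was the highest library of its group in 4 of the 9 tested members. DMSO replicate 3 was the highest in 3 (H2-K1, H2-D1 and Tap2) and DMSO replicate 2 in 2. Compound 33 replicate 3 was the highest of its group in 6 of 9, not in B2m, H2-T23 or Tap1, and compound 33 replicate 1 in 3. All 10 myeloid markers had reads, and 2 were abundant enough to be tested. Their part in the class I levels was not tested. In bulk RNA, a change in the number of cells of a type and a change in RNA per cell cannot be told apart.

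**Figure D4:**
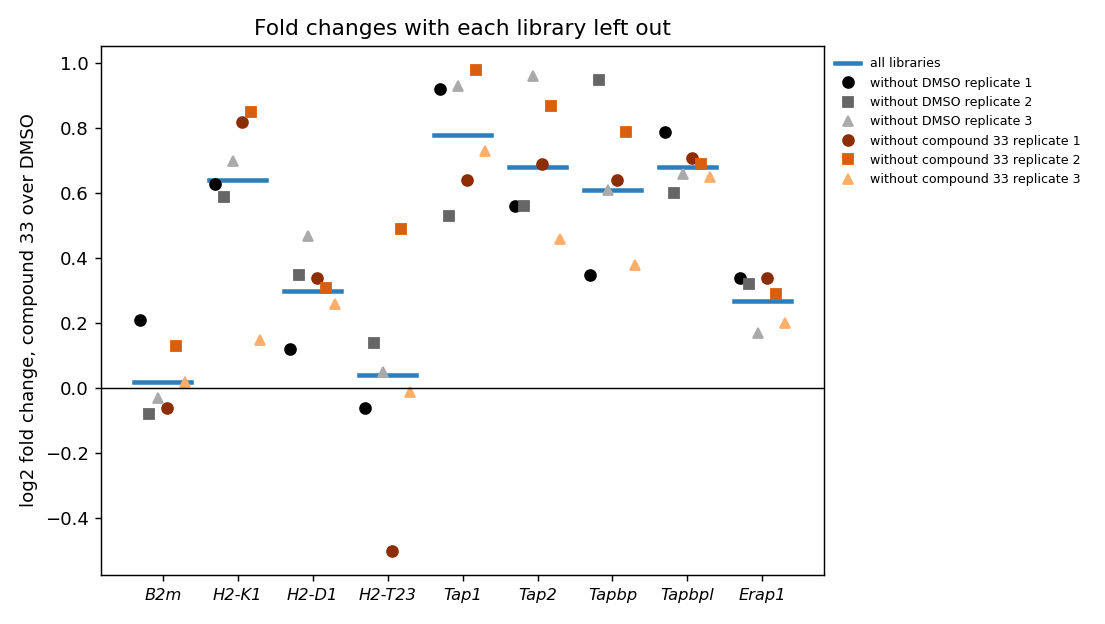
Log2 fold change of each tested member, compound 33 over DMSO, with all 6 libraries (blue bar) and with each library left out (points, by the library removed). Tapbpl stays between 0.60 and 0.79, H2-K1 drops to 0.15 without compound 33 replicate 3, and B2m and H2-T23 fall on both sides of 0.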

How the data were processed

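RNA of 6 fibroblast samples was sequenced with the QuantSeq 3′ kit on an Ion Proton, per the labels' protocols. Per the submitters' processing notes, build mm10, HISAT2 2.2.1, FastQC 0.11.9, featureCounts 2.0.3 and DESeq2 were used; annotation, strand setting and the treatment of multi-mapped reads were not given in the sources used here. Deposited were raw read counts per gene and the authors' comparison table, whose deposited mean normalized count is a signal, whose fold change is log2, whose Wald statistic is a score and which holds p-values. Counts were filtered (filterByExpr, minimum count 10), scaled by TMM and tested with edgeR 4.0.16 in R 4.3.3 (quasi-likelihood F test, robust, group as the only term, two-sided, Benjamini-Hochberg over 10124 genes, threshold 0.05). The SE is the unshrunk log2 fold change over the square root of F. The typical coefficient of variation between libraries was 23.6%. Replicate pairs differed by 4.34 to 17.6 in chi-square per degree of freedom, more than counting error alone gives. Each library was counted as a replicate, although this measure cannot show that they are separate cultures. Alternatives were RLE and upper-quartile scaling, no or a stricter filter (minimum count 20), no robust estimation, DESeq2 1.42.0, limma-voom (limma 3.58.1), a replicate block and leaving out each library. Ratios within a library were tested by exact permutation. Fits were tested on simulated counts. Positions and transcripts are from GENCODE M21 on mm10, counted from 1. The members and lists were chosen with earlier results of these data known. Named genes are the members, for each list up to 4 genes with the smallest p or the highest level, and the 5 genes most like the members' mean; H2-DMb1, H2-DMb2, H2-Q7, Thy1, Pdgfrb, Cd74, the interferon genes, the other RFX, NF-Y and PA28 genes, Ifi202b and C1s1 were named after their values were seen.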

Additional observations from a re-analysis of the deposited data

How the results depend on the processing

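No member passed in any of the 14 alternative fits, and 7 of the 9 tested members had a positive fold change in all of them. The exceptions were H2-T23, at -0.30 in limma-voom, -0.10 with the replicate block and -0.50 to 0.49 with each library left out, and B2m, at -0.08 to 0.21 with each library left out. The median of the members was 0.53 to 0.63 under the other settings and 0.26 (without compound 33 replicate 3) to 0.69 (without compound 33 replicate 2) with a library left out. Over all genes 3 passed in edgeR, 21 without a low-count filter, 18 in DESeq2, 7 with the replicate block and 1 to 7 with a library left out. The cause was not tested. The replicate numbers are not said to pair samples, and the deviations of same-numbered libraries correlated at -0.098, 0.279 and 0.071 over 6665 genes, with DMSO replicate 1 closest to compound 33 replicate 3 (0.234). H2-DMb2, Ifi202b and C1s1 were absent from same-numbered libraries of both groups, as given below. Whether the numbers pair the samples was not tested. The block changed no member's call. With it 4 members lay under an unadjusted 0.05, Tapbp in place of H2-K1, but the share of all genes was not computed for that fit. Depth limits Nlrc5, with 1 to 6 reads a library.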

Other observations

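Genes that were absent by replicate number and not by treatment were searched for after H2-DMb2 was seen, as those with at most 1 read in one DMSO and one compound 33 library and at least 15 in each of the other 4. Same-numbered libraries gave 3 such genes and the 6 other combinations of a DMSO with a compound 33 library gave 0. H2-DMb2 and the interferon-inducible Ifi202b were absent in replicate 1 of both groups, where Ifi202b had 164, 105, 92 and 54 reads in the other libraries. C1s1, a complement protease, had 0 reads in replicate 2 of both groups and 124, 368, 291 and 204 elsewhere. Neither Ifi202b (chromosome 1) nor C1s1 (chromosome 6) lies near the class I genes of chromosome 17.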
